A study of Macaca mulatta with 2 samples.

Results

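The genes described here are interferon-stimulated genes, taken by name from a list of 39 that holds antiviral effectors, the interferon receptor subunits and the factors that carry their signal. The deposited table listed 38 of them among 16684 genes, and *GBP1* was not analysed here. The data were bulk RNA-seq of 2 libraries of macaque (*Macaca mulatta*) optic nerve, wild-type and untreated, a single condition without a treated or infected group. The study's methods describe nerves taken postmortem from a 12-year-old male, whereas the deposited design text speaks of different animals, so whether the libraries, named Rep1 and Rep2, come from 1 animal or from several is not settled. Values are in TPM, which counts a gene's length-corrected reads among 1000000 of its library and is given as the mean ± SD of the libraries. With 1 condition no test between groups exists, and every comparison below is a description of these libraries.

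Interferons are cytokines, and those of type I are released by cells that sense viral nucleic acid. Type I interferons bind a receptor of *IFNAR1* and *IFNAR2*, and the Janus kinases bound to it activate a complex that holds STAT2 and IRF9 and binds the interferon-stimulated response element (ISRE) near the starts of target genes. Interferon gamma binds a receptor with *IFNGR1* and acts through gamma-activated sites (GAS). Many of these target genes are also transcribed at a low tonic level in tissue without infection, including nervous tissue, where glia, endothelial cells and fibroblasts can all respond.

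The libraries differed before any interferon gene was considered. All 8 oligodendrocyte markers were above 0 in both libraries, and their summed level was 46072 TPM in Rep1 and 212631 in Rep2, so the labelled tissue was recognisable in both. Astrocyte markers summed to 1148 and 7342 TPM and fibroblast markers to 1618 and 15164 TPM. The 8 photoreceptor markers, which optic nerve should lack, summed to 3322 TPM in Rep1 and 10.2 in Rep2, and 7 of them were higher in Rep1. Rep1 also listed 6425 genes at 0, against 2082 in Rep2, and 1 read in Rep1 was worth as much TPM as 17.2 reads in Rep2. Levels of single genes are therefore given for each library.

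The interferon-stimulated genes spanned a wide range of levels. All 38 were above 0 in Rep2, where 87.5% of all listed genes were, and 36 reached 1 TPM, as did 72.5% of all genes. In Rep1, 25 were above 0 (61.5% of all genes) and 22 reached 1 TPM (56.4%). The same 22 genes reached 1 TPM in both libraries, against 53.9% of all genes. Their median level was 2.23 TPM in Rep1 and 12.9 in Rep2, beside 2.09 and 7.93 TPM for all genes. Together they took 297 TPM in Rep1 and 1754 in Rep2, or 0.0297% and 0.175% of the library. The 10 highest members held 80.6% of that sum in Rep2, and 9 of the 10 highest were the same genes in both libraries.

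**Figure D1:**
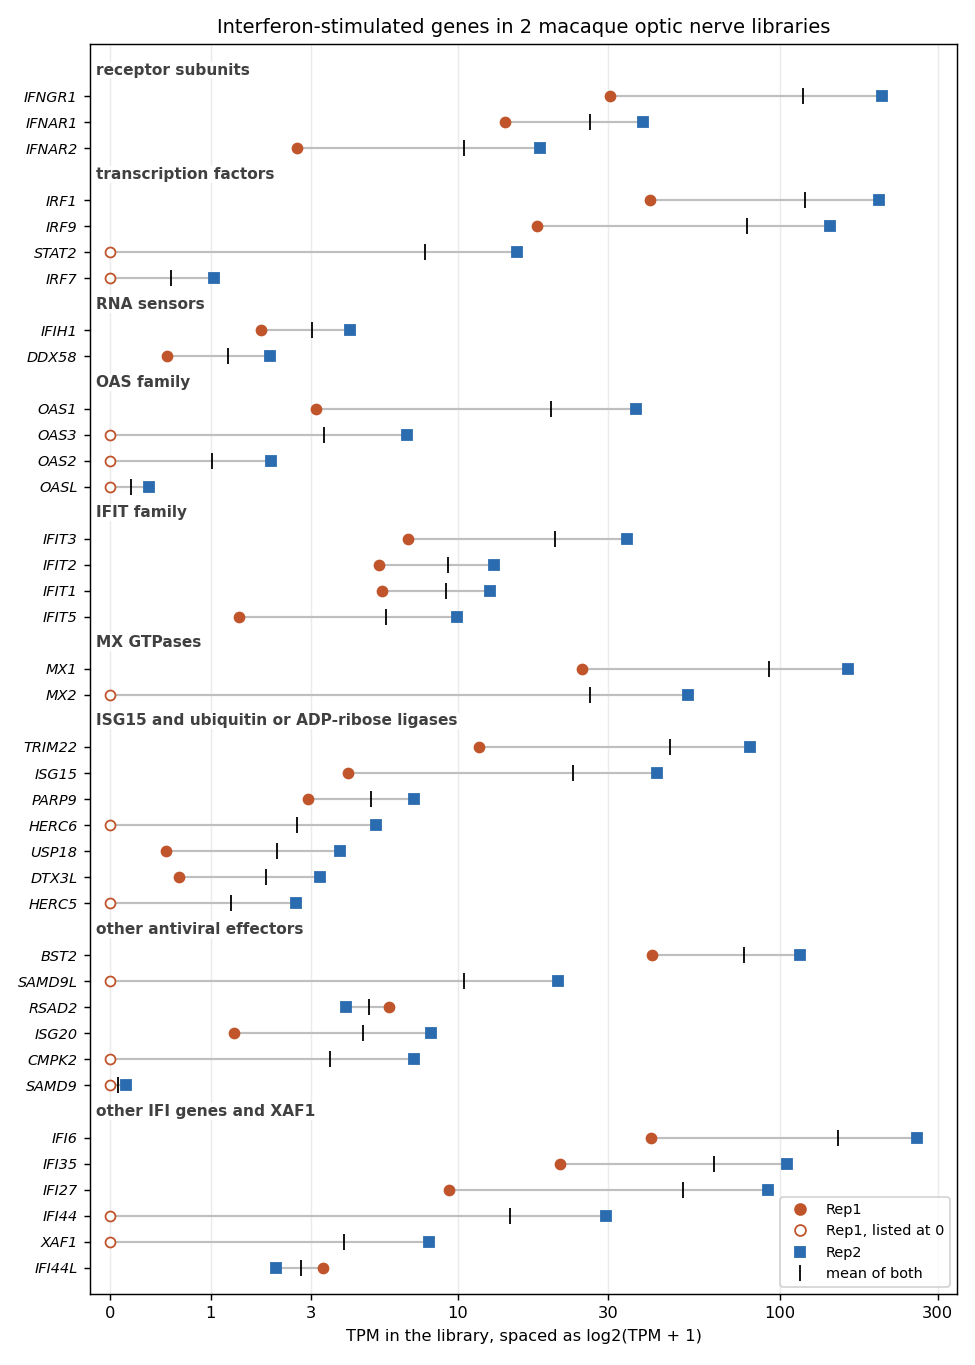
TPM of each of the 38 listed interferon-stimulated genes in Rep1 (circles, open where listed at 0) and Rep2 (squares), with the mean of both as a bar, on an axis spaced as log2(TPM + 1) and grouped by role. The square lies to the right of the circle in 36 genes, and 13 circles are open.

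The highest levels belonged to *IFI6*, *IRF1*, *IFNGR1*, *MX1*, *IRF9* and *BST2*, whose means ran from 150.3 TPM down to 78.2 TPM. The lowest were *IRF7*, *OASL* and *SAMD9*, each under 1 TPM on the mean, with *IRF7* at 1.04 TPM in Rep2. No 2 neighbours in the order of mean levels differed by more than the SD of their libraries, over all 37 neighbouring pairs. For 25 members the SD was at least as large as the mean, which always holds for the 13 at 0 in Rep1. The SD includes the shift between libraries, with 36 of the 38 members higher in Rep2, so it does not measure how certain the order is. Between the libraries, log2(TPM + 1) of the 38 members correlated with Pearson's r of 0.79 and Spearman's rho of 0.71, beside 0.75 and 0.77 for all listed genes. Members share their library and its depth, so this correlation is across genes and carries no test. Of 703 pairs of members, 502 (71.4%) stood in the same order in both libraries. The rest were not all reversed, because pairs among the 13 members at 0 in Rep1 are tied there and have no order. The sources used here do not say whether counting used strand, and 9 members, *IRF1* and *MX2* among them, overlap a gene on the opposite strand whose reads could not be told apart without it. Of all 38, 26 share no 50-base word of their transcripts with another gene.

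Sequence near the starts of the genes was examined because interferon signals act through ISRE and GAS motifs at many of their target genes. Windows from 250 bases before to 50 bases after the annotated gene start, read from the Mmul_10 genome with RefSeq gene models, were searched on both strands for the ISRE core, taken as GAAA, any 2 bases and GAAA again, and for the GAS motif TTCNNNGAA, which reads the same on either strand and can overlap the ISRE core. The ISRE core was found in 11 of 38 members and in 3.22% of 16683 windows of listed genes. GAS was found in 7 members and in 6.78% of windows. Only *BST2* and *IFI27* held both, and 6 members held the ISRE core at 2 or more positions. No share over all listed genes was computed for these counts, so they do not show whether the members stand out. The windows of the 4 highest members among those 6 are printed here with the ISRE core in capitals, each 5′ to 3′ on the strand of its gene, where TTTC at the left of a match marks the core on the opposite strand.
*IFI6*, chr1:197051336-197051635 (plus strand): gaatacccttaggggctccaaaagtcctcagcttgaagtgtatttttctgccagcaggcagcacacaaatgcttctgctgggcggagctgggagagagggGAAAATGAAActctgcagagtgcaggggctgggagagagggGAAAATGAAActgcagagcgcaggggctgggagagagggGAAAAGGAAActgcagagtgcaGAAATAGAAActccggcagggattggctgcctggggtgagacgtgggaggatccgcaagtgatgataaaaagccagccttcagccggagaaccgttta
*BST2*, chr19:16907586-16907885 (minus strand): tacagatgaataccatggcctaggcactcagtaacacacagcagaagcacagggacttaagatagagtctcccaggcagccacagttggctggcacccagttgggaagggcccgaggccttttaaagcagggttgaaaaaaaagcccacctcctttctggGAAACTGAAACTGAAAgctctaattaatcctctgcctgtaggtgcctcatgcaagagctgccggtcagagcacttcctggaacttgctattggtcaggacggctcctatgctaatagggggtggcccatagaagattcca
*IFI27*, chr7:156288803-156289102 (plus strand): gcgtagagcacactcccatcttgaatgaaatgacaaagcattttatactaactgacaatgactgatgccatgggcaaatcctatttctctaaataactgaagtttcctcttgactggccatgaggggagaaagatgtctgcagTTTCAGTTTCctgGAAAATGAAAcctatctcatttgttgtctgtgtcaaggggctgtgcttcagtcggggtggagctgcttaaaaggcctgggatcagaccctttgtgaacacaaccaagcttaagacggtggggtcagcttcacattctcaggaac
*ISG15*, chr1:223405053-223405352 (minus strand): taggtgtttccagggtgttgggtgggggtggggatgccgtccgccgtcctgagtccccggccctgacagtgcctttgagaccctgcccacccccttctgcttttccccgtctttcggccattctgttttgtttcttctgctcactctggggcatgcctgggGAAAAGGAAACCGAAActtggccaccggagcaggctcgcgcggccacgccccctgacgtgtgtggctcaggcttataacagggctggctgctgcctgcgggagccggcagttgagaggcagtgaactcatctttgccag

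*IFI6* held 4 separate cores, at 150, 109, 70 and 48 bases before its start. In *BST2* and *ISG15* the cores overlap by sharing a GAAA, beginning 90 and 84 bases before the start of *BST2* and 89 and 83 bases before that of *ISG15*. *IFI27* carried a core on each strand, beginning 107 and 94 bases before its start, with a GAS match that overlaps both. *IFIT2* held TTTCACTTTC at 2 positions, beginning 43 and 30 bases before its start. *SAMD9* and *SAMD9L*, which are neighbours, both held GAAACTGAAA, 51 and 38 bases before their starts. *IFI44*, *RSAD2*, *HERC5* and *OASL* also had the ISRE core.

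**Figure D2:**
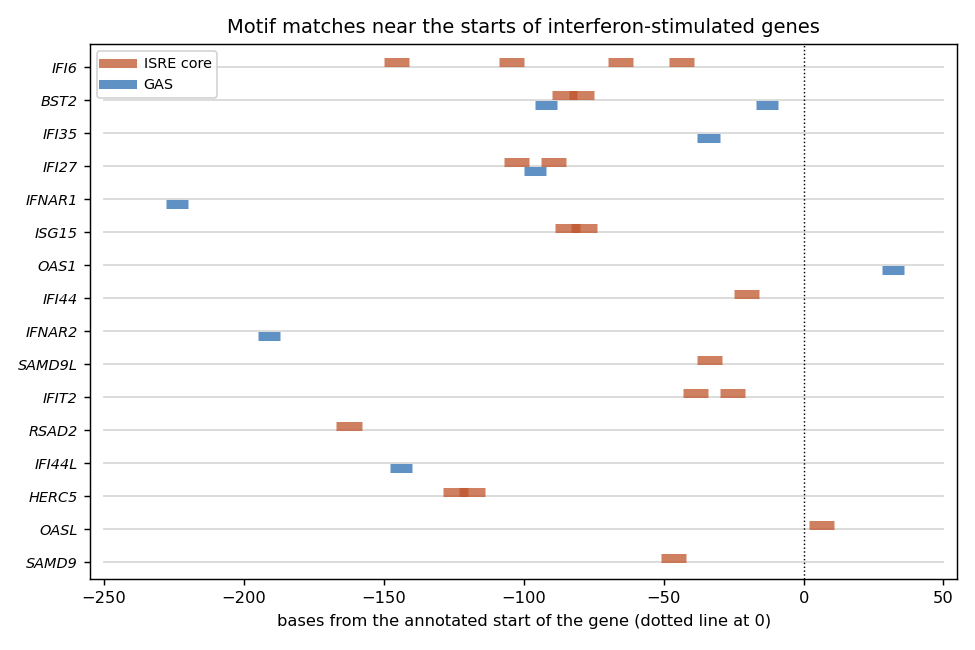
Positions of ISRE core (orange) and GAS (blue) matches in bases from the annotated gene start for the 16 members with a match, in order of mean TPM. ISRE cores lie between the start and 167 bases before it, with 1 past the start, in *OASL*, whereas GAS matches run from 228 bases before to 36 bases after the start.

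Levels of the genes with and without a core overlapped. The 11 members with the ISRE core ran from 0.117 to 260.1 TPM in Rep2, with a median of 20.9 TPM, and the other 27 ran from 1.04 to 204 TPM, with a median of 9.92 TPM. In Rep1 the medians were 4.17 and 1.83 TPM, and 5 of the 11 and 8 of the 27 were listed at 0. A match in a window is a description of letters, and the windows depend on which transcript start the annotation gives. The core was searched only with a gap of 2 bases. *MX1* and *MX2*, counted as without it, hold repeats of TTTC with a shorter gap.

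The receptor subunits were detected in both libraries. *IFNGR1*, the ligand-binding chain for interferon gamma, was at 30.3 TPM in Rep1 and 204 in Rep2, or 117 ± 123 TPM (SD, n = 2 libraries). *IFNAR1* was at 14.2 and 38.5 TPM, and *IFNAR2*, the high-affinity chain for type I interferon, at 2.63 and 18.4 TPM. In each library *IFNGR1* was the highest and *IFNAR2* the lowest of the 3 subunits. *IFNAR1* and *IFNAR2* lie beside each other on chromosome 3, from 13192424 to 13325302 of Mmul_10, both on the minus strand.

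Among transcription factors, *IRF1* and *IRF9* stood above *STAT2* and *IRF7* in both libraries. *IRF1*, a factor that interferon gamma induces, was at 40.4 TPM in Rep1 and 199 in Rep2, and *IRF9*, the DNA-binding part of the ISRE complex, at 18.01 and 142 TPM. *STAT2*, the partner of IRF9 in that complex, reached 15.5 TPM in Rep2 but was at 0 in Rep1. *IRF7*, which drives further interferon production once it has been induced, was listed at 0 in Rep1 and at 1.04 TPM in Rep2. The order *IRF1*, *IRF9*, *STAT2*, *IRF7* held in Rep2, and in Rep1 the last pair was tied at 0.

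The cytosolic sensors of viral RNA were low. *IFIH1*, which encodes MDA5, was at 1.83 TPM in Rep1 and 4.23 in Rep2, and *DDX58*, which encodes RIG-I, at 0.483 and 2.01 TPM. *IFIH1* was above *DDX58* in both libraries.

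The OAS family makes short oligoadenylates that switch on the nuclease RNase L, and *OASL* is a relative without that activity. *OAS1* was at 3.12 TPM in Rep1 and 36.5 in Rep2. The other 3 were listed at 0 in Rep1, and in Rep2 *OAS3* was at 6.74 TPM, *OAS2* at 2.03 TPM and *OASL* at 0.308 TPM. *OAS1*, *OAS3* and *OAS2* follow each other on chromosome 11, from 112632314 to 112728626 on the plus strand, and their levels in Rep2 fell in that genomic order, from *OAS1* to *OAS2*.

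All 4 IFIT genes, whose products are built of tetratricopeptide repeats, were above 1 TPM in both libraries. *IFIT3* was the highest at 6.78 TPM in Rep1 and 34.2 in Rep2. *IFIT2* was at 5.38 and 13.1 TPM and *IFIT1* at 5.52 and 12.7 TPM, so the order of that pair switched between the libraries. *IFIT5* was the lowest at 1.43 and 9.92 TPM. They share a cluster on the plus strand of chromosome 9, from 89563460 to 89679799. Of the 50-base words in their transcripts, 4.28% in *IFIT1* and under 0.5% in *IFIT2* and *IFIT3* also occur in transcripts of another gene, and reads there could have been assigned to either.

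The MX genes encode dynamin-like GTPases that block viral nucleocapsids. *MX1* was at 24.9 TPM in Rep1 and 161 in Rep2, or 93.0 ± 96.3 TPM (SD, n = 2). *MX2*, 7077 bases away on the same strand of chromosome 3, was at 52.8 TPM in Rep2 but listed at 0 in Rep1. *MX2* had the highest Rep2 level of the members listed at 0 in Rep1, and 3.83% of the 3001 genes between 30 and 100 TPM in Rep2 were likewise at 0 there.

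*ISG15*, the ubiquitin-like modifier attached to proteins after interferon, was at 4.17 TPM in Rep1 and 42.4 in Rep2. Its protease *USP18*, which also restrains the type I receptor, was at 0.464 and 3.86 TPM. *HERC5*, its ligase in human cells, was listed at 0 in Rep1 and at 2.59 TPM in Rep2, and the neighbouring *HERC6* at 0 and 5.27 TPM. *TRIM22*, a RING-domain antiviral ligase, was the highest of this group at 11.7 and 81.1 TPM. *PARP9* and *DTX3L*, which form an ADP-ribosylating ubiquitin ligase complex, were at 2.92 and 0.603 TPM in Rep1 and at 7.15 and 3.26 TPM in Rep2. The annotated *DTX3L* gene spans all of *PARP9* on the opposite strand of chromosome 2, and 17.0% of its 50-base words and 8.21% of those of *PARP9* occur in another gene, which leaves both levels uncertain.

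Of the other antiviral effectors, *BST2*, which encodes the virion tether tetherin, was the highest at 40.9 TPM in Rep1 and 115 in Rep2. It was the highest of all members in Rep1 and had a mean of 78.2 ± 52.7 TPM (SD, n = 2). *SAMD9L* reached 20.9 TPM in Rep2 and was at 0 in Rep1, whereas its neighbour and paralog *SAMD9* was at 0 and 0.117 TPM, the lowest of all members. *ISG20*, an exonuclease, was at 1.35 and 8.11 TPM. *RSAD2*, which encodes viperin, was at 5.84 TPM in Rep1 and 4.08 in Rep2. The mitochondrial nucleotide kinase gene *CMPK2*, which lies 7773 bases from *RSAD2* on the opposite strand of chromosome 13, was listed at 0 in Rep1 and at 7.12 TPM in Rep2, so the order of this pair differed between the libraries.

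*IFI6*, which encodes a small membrane protein that limits apoptosis, was the highest member on the mean at 150.3 ± 155.2 TPM (SD, n = 2), from 40.6 TPM in Rep1 and 260.1 in Rep2. *IFI27*, of the same protein family, was at 9.33 and 92.3 TPM, and *IFI35* at 21.2 and 106 TPM. *IFI44* was listed at 0 in Rep1 and at 29.5 TPM in Rep2, whereas its neighbour *IFI44L* was at 3.33 and 2.13 TPM. *XAF1*, which encodes an antagonist of the apoptosis inhibitor XIAP, was at 0 and 7.999 TPM. The *IFI44* and *IFI44L* pair spans chromosome 1 from 145749495 to 145794334, and *IFI44* was the higher of the pair in Rep2 only.

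Most interferon-stimulated genes were higher in Rep2 than in Rep1. This held for 36 of 38 by any amount, as for 66.8% of all listed genes, and the exceptions were *RSAD2* and *IFI44L*. On the scale of log2(TPM + 1), where changes of low genes appear smaller, 33 members were at least 2-fold higher in Rep2, against 45.2% of all genes. None was at least 2-fold higher in Rep1, against 13.0% of all genes. The median difference, Rep1 minus Rep2, was -2.22 over the members and -0.74 over all genes. When the libraries were scaled by the median of ratios, which corrects a log2 shift of -1.19 in Rep1, these medians were -1.24 and -0.18. After that scaling 25 members were at least 2-fold higher in Rep2 (29.8% of all genes) and 2 in Rep1 (20.9% of all genes).

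Among the 25 members above 0 in both libraries, the ratio of TPM, Rep2 over Rep1, had a median of 5.41, whereas it was 2.28 over all 10168 such genes. The ratios ran from 0.640 in *IFI44L* to 11.7 in *OAS1*, and *ISG15* was next at 10.2. The smallest ratios among genes higher in Rep2 were 2.30 in *IFIT1* and 2.31 in *IFIH1*. The 3.33 and 5.84 TPM of *IFI44L* and *RSAD2* in Rep1 rested on at least 1 read each, the smallest whole number that the ratio of their values allows, and true read numbers may be several times that. For the largest ratios the minimum in Rep1 was likewise low, at 1 read for *ISG15* and *IFI27* and 3 for *OAS1*. A minimum of 1 holds for any gene above 0, so it does not show that few reads were present. In Rep1 these minimum read numbers had a median of 3 over the 25 genes and a maximum of 34, in *IFI6*, whereas in Rep2 they ran from 11 to 3747.

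Marker genes of the nerve's cells were mostly higher in Rep2 as well. Summed over each list, the level in Rep2 was 5.90 times that in Rep1 for the interferon-stimulated genes, 6.40 times for astrocytes, 4.62 times for oligodendrocytes and 9.37 times for fibroblasts. Such sums follow their most abundant genes, and *MBP* alone was at 43721.5 TPM in Rep1 and 199595 in Rep2. By number, 7 of 8 astrocyte, 8 of 8 oligodendrocyte and 6 of 6 fibroblast markers were higher in Rep2. Their median log2 differences, Rep1 minus Rep2, were -2.17, -2.43 and -3.16. The summed ratio was 2.29 for microglia and macrophages and 2.40 for endothelial cells, in which 7 of 8 and 6 of 8 markers were higher in Rep2. The medians there were -2.61 and -1.35. Housekeeping genes went the other way, with 7 of 10 higher in Rep1 and a ratio of 0.562, as did photoreceptor markers. The part of these shifts in the levels of the interferon-stimulated genes was not tested, and in bulk tissue fewer cells of a type and less RNA per cell cannot be told apart.

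Markers of T and NK cells, B and plasma cells and neutrophils were low, the highest value being 2.49 TPM, in Rep2. The 7 markers of T and NK cells summed to 0.814 TPM in Rep1 and 3.999 in Rep2, with 6 at 0 in Rep1 and *CD3E* at 0 in both. The 5 listed markers of B and plasma cells and the 5 of neutrophils were all at 0 in Rep1 and summed to 3.28 and 4.86 TPM in Rep2. Of the plasmacytoid dendritic cell markers, *CLEC4C* was at 0 in both libraries and *LILRA4* at 0 in Rep1 and 5.44 TPM in Rep2, whereas *TCF4*, which many other cells express, was at 616 and 127 TPM.

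**Figure D3:**
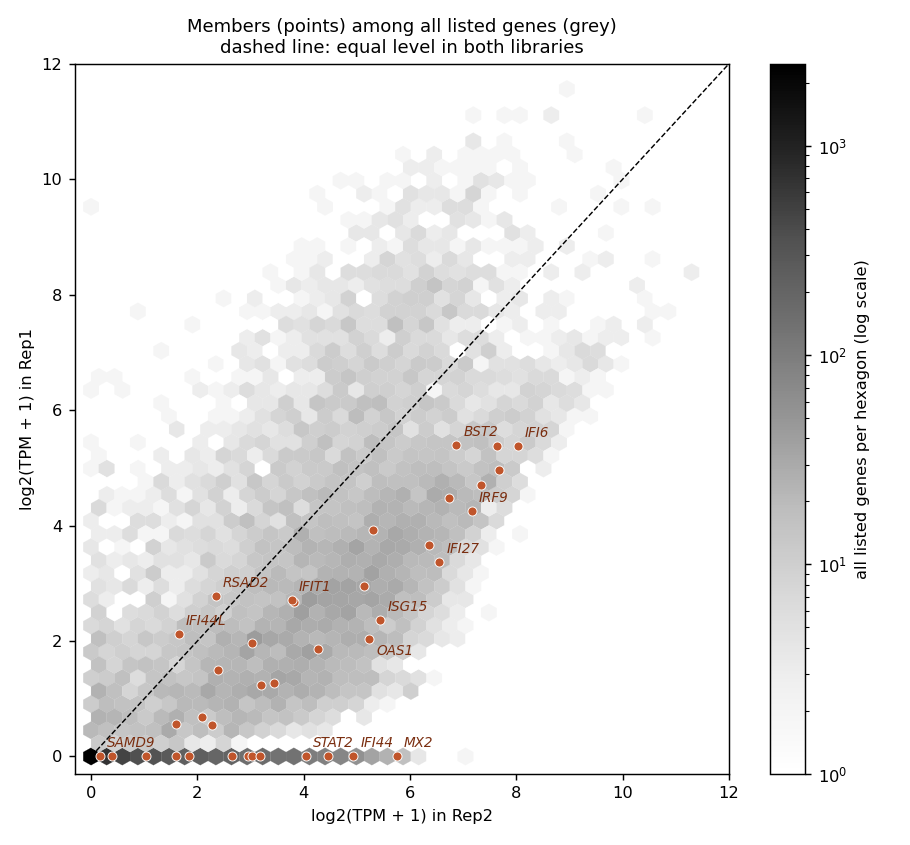
log2(TPM + 1) in Rep1 against Rep2 for the 38 members (orange points) over all listed genes (grey hexagons, shaded by the number of genes), without the 39 genes above 12 on either axis. The members lie below the dashed line of equal level except *RSAD2* and *IFI44L*, and those listed at 0 in Rep1 line the lower edge up to *MX2*.

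A value of 0 in Rep1 was common and depended on the level in Rep2. Of the 38 members, 13 were listed at 0 in Rep1, and so were 30.4% of the 14602 genes above 0 in Rep2. Both members under 1 TPM in Rep2 were among them, as were 3 of 5 between 1 and 3 TPM and 4 of 11 between 3 and 10 TPM, where the shares over all genes were 77.5%, 56.8% and 33.8%. Of the 20 members that reached 10 TPM in Rep2, 4 were at 0 in Rep1, namely *MX2*, *IFI44*, *SAMD9L* and *STAT2*, beside 8.19% of the 7739 genes at that level. All 7 members at 100 TPM or more were above 0 in Rep1, and of the 1548 listed genes at that level only 0.129% were at 0 there. The 13 genes had a median longest transcript of 3438 bases and the other 25 of 2274 bases. Their median levels in Rep2 also differed, at 6.74 TPM for the 13 and 34.2 TPM for the 25. A listed 0 shows that a transcript was not detected in Rep1, not that it was missing.

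**Figure D4:**
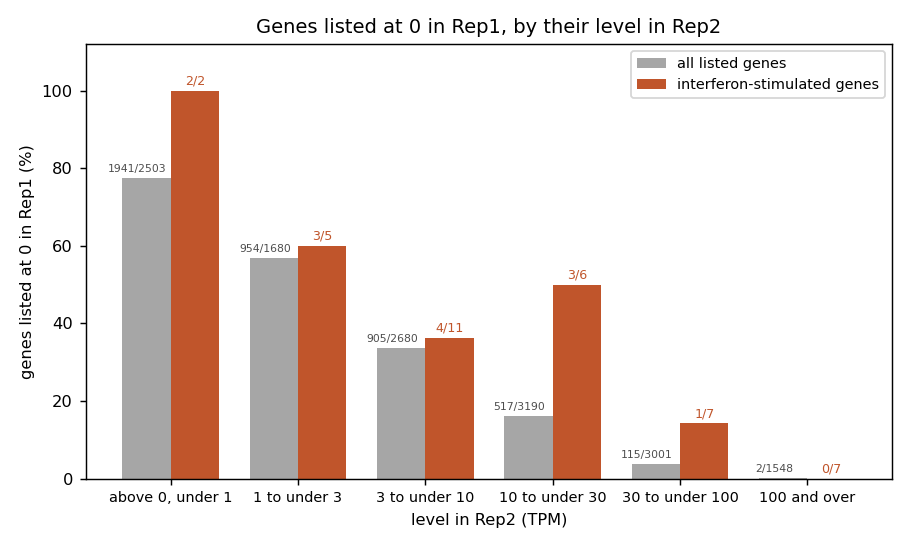
Percentage of genes listed at 0 in Rep1, by level in Rep2, for all listed genes (grey) and for the interferon-stimulated genes (orange), with the number of genes above each bar. The grey share falls at every step up in level, whereas the orange one rises once, at 10 to under 30 TPM (3 of 6 genes), and the orange bars hold 2 to 11 genes each.

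The rest of the interferon pathway was read from a second list, of which 65 genes were analysed. The 5 interferon genes on it, *IFNB1*, *IFNE*, *IFNK*, *IFNG* and *IFNL1*, were all listed at 0 in Rep1 and lay between 0.0684 and 0.604 TPM in Rep2. Of the 65, 38 reached 1 TPM in both libraries (53.9% of all listed genes did) and 53 in Rep2 (72.5%). On the log2(TPM + 1) scale, 40 were at least 2-fold higher in Rep2 (45.2% of all genes) and 5 in Rep1 (13.0%).

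Receptor partners and kinases were unevenly placed. *IFNGR2*, the second chain of the interferon gamma receptor, was at 3.07 TPM in Rep1 and 92.2 in Rep2, a ratio of 30.05 where that of *IFNGR1* was 6.74. *IL10RB*, shared with the interleukin-10 and interferon lambda receptors, was at 3.30 and 60.4 TPM, whereas *IFNLR1*, the specific chain for interferon lambda, was at 0 and 0.0779 TPM. *JAK1*, the kinase used by all these receptors, was at 331 and 181 TPM and thus higher in Rep1. *TYK2* was at 12.6 and 44.4 TPM and *JAK2* at 9.93 and 11.95 TPM.

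Of the other signal transducers, 7 of 9 were higher in Rep1, as were 21.3% of all listed genes. *STAT3*, which many cytokines activate, was at 155 TPM in Rep1 and 137 in Rep2. *IRF3*, which starts the transcription of interferon genes, was at 31.2 and 94.5 TPM. The inhibitor genes *PIAS1* and *SOCS3* were at 912 and 313 TPM in Rep1 and at 80.4 and 18.4 TPM in Rep2. *SOCS1*, also an inhibitor of this signal, was at 13.7 and 6.47 TPM, and the phosphatase gene *PTPN2* at 45.0 and 32.3 TPM. *IRF8*, a factor of microglia and other myeloid cells, was at 114 and 13.7 TPM, *IRF2* at 69.1 and 31.0 TPM and *IRF5* at 0 and 7.01 TPM.

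**Figure D5:**
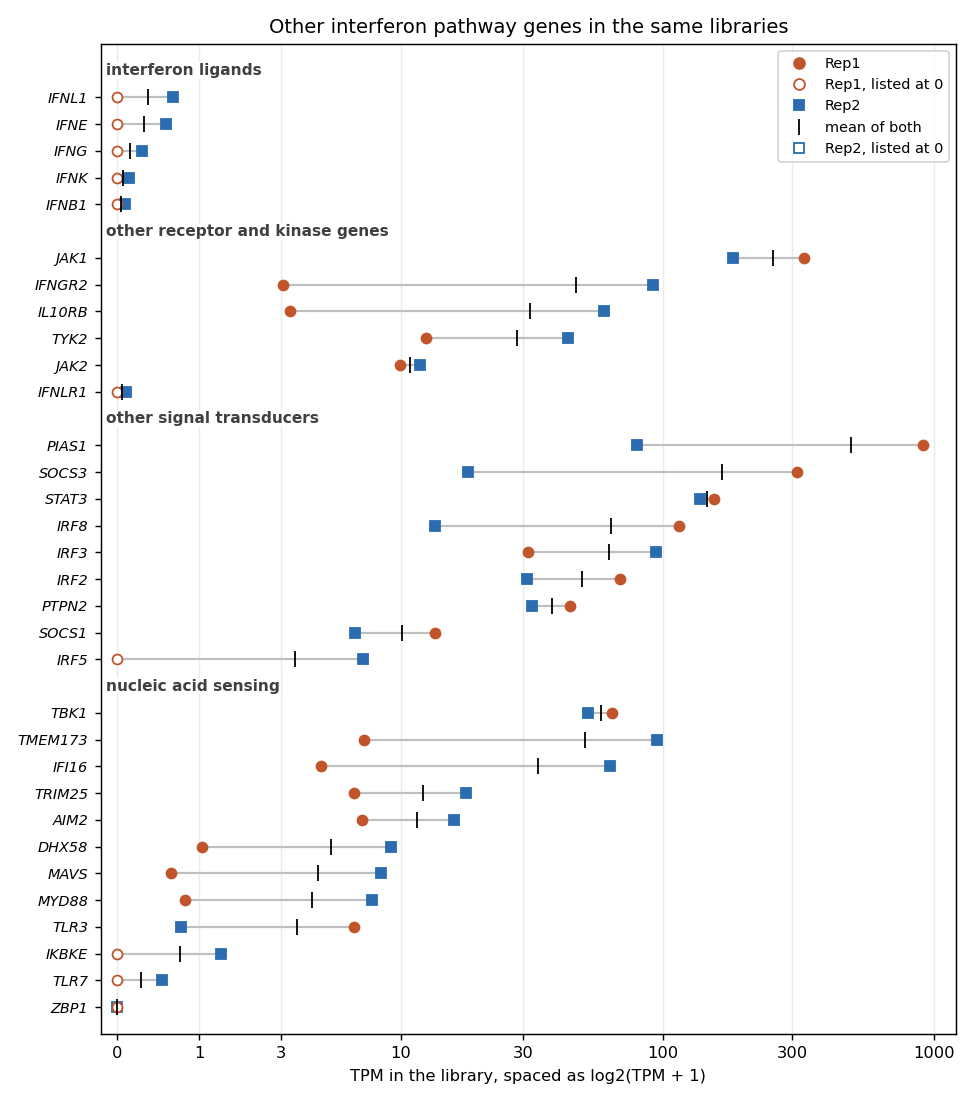
TPM in Rep1 (circles) and Rep2 (squares), with the mean of both as a bar, for 32 other genes of the interferon pathway on an axis spaced as log2(TPM + 1), where open symbols mark a value listed at 0. The interferon genes sit at the left edge, and signal transducers such as *PIAS1* and *SOCS3* have their Rep1 value on the right.

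In the nucleic acid sensing group, *TBK1*, the kinase that activates IRF3, was at 64.9 TPM in Rep1 and 52.4 in Rep2. *TMEM173*, which encodes STING, was at 7.07 and 95.0 TPM and *IFI16*, a DNA sensor, at 4.62 and 63.4 TPM. *TRIM25*, a ligase that acts on RIG-I, was at 6.43 and 18.1 TPM, and *AIM2*, a DNA sensor of the inflammasome, at 6.93 and 16.3 TPM. Of the 33 other interferon-induced genes, 31 were higher in Rep2 (66.8% of all genes) and 27 at least 2-fold (45.2%), their summed level in Rep2 being 6.40 times that in Rep1. The 5 with the highest mean of both libraries were *SHISA5* at 27.0 and 205 TPM, *LAP3*, an aminopeptidase, at 22.4 and 154 TPM, *LGALS3BP* at 11.2 and 94.1 TPM, the RNA-editing enzyme gene *ADAR* at 4.65 and 82.1 TPM and *RNF213* at 10.7 and 68.4 TPM.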

How the data were processed

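Total RNA of macaque optic nerve was amplified as cDNA (SMARTer v4 Ultra Low Input kit) and sequenced. The authors used Trim Galore 0.6.6 for trimming, mapped to Mmul_10 with STAR 2.7.1a, counted reads per gene with featureCounts 1.5.3 and deposited TPM of 16684 genes in each library, not pooled, each summing to 1000000. Gene lengths and strand use are not given in the sources used here, so levels of different genes compare only as far as those lengths hold. The columns Rep1 and Rep2 name no sample title and served as replicates of the condition.

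Python 3.11, numpy 2.4.6, pandas 2.3.3 and matplotlib 3.10.9 were used. Differences were taken on log2(TPM + 1), and no p-value was computed. Minimum read numbers came from ratios of values that must be ratios of whole reads, a method tested on simulated data. Absolute depth is unknown, so no interval or detection limit per gene is given. All 38 members matched the RefSeq annotation of Mmul_10.

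Every listed member is named, and pathway genes by group, with the 5 highest of the larger groups. A gene of the pathway list was left out of its counts and is not reported here. Members and lists were chosen with earlier results of these data known. Alternatives were the median of ratios as scaling, removal of the 10 most abundant genes, a pseudocount of 0.1, a threshold of 0.5 TPM, a minimum mean of 1 TPM, the geometric mean and each library alone.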

Additional observations from a re-analysis of the deposited data

How the results depend on the processing

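No paired analysis was possible because there is only 1 condition. Without replicate 1 or replicate 2, the number of members at 1 TPM or more ran from 22 to 36, that of pathway genes from 39 to 53 and the median level of the members from 2.23 to 12.9 TPM. Scaling by the median of ratios gave 2 members at least 2-fold higher in Rep1, *RSAD2* and *IFI44L*, where the deposited values gave none. The other alternatives kept every count within 1.5 times and the sign of the median difference, which ran from -2.73 with a pseudocount of 0.1 to -1.24 under the median of ratios. All 114 member means under scaling, averaging or removal of abundant genes stayed within 1 SD, but that SD is wide, so this says little about stability. All 13 members at 0 in Rep1 were under 100 TPM in Rep2. At 100 TPM or more, only 0.129% of all listed genes were at 0 in Rep1. The part of depth in these values of 0 was not tested.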
